A study of Mus musculus with 23 samples.

Results

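The genes described here are 10 receptors and bridge proteins with which phagocytes take up lipoproteins, debris and dying cells: Cd68, Msr1, Cd36, Scarb1, Lrp1, Mertk, Timd4, Gas6, Pros1 and Mfge8. They were chosen by name from the 18876 genes in the count table, and all 10 passed the filter on low counts that left 18759 genes for testing. The libraries are bulk RNA-seq of hippocampal cells enriched with CD11b beads from female mice on a mixed 129S;C57BL/6J background that were killed at 15 to 18 months of age. All mice carried floxed Slc11a2, the gene for the iron importer DMT1, on both alleles, and 1 copy of the tamoxifen-dependent Cre recombinase CreERT2 driven by the promoter of Cx3cr1, a gene of microglia and other brain macrophages. APP/PS1 mice also carried the APPswe and PSEN1dE9 transgenes, which give amyloid plaques, and WT mice were their littermates without them. Knockdown (Slc11a2KD, here KD) mice had been gavaged with 4 mg tamoxifen a day for 5 days at 5 to 6 months, and Control mice had been given corn oil without tamoxifen, so the effect of the drug and that of the recombination cannot be told apart. The 4 groups were Control WT (n = 6), Control APP/PS1 (n = 7, of which 6 were used), KD WT (n = 5) and KD APP/PS1 (n = 5), and the study calls the libraries biological replicates.

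Scavenger receptors bind modified lipoproteins, amyloid and other polyanionic or lipid ligands and carry them into the cell. Dying cells expose phosphatidylserine, which is recognised directly by receptors such as Timd4, or through soluble bridge proteins: Gas6 and Pros1 link it to the TAM receptor kinases, of which Mertk is one, and Mfge8 links it to alpha v integrins. In the adult brain microglia are the main cells that clear debris in this way, and Cd68, a glycoprotein of the late endosome and lysosome membrane, is widely used to stain phagocytic microglia.

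Library sizes ran from 31128643 to 54872491 counts in genes (median 41460280 in the 22 libraries used). The study's methods remove 1 Control APP/PS1 sample as an outlier on the first principal component, and library 10, taken to be that sample, was left out of the fit. Levels are given in CPM, the counts of a gene relative to the TMM-scaled total of its library. In gene totals Slc11a2 itself was at 35.1 ± 5.13 CPM (SD, n = 6) in Control WT, 43.2 ± 3.93 (n = 6) in Control APP/PS1, 34.2 ± 4.75 (n = 5) in KD WT and 56.5 ± 13.5 (n = 5) in KD APP/PS1, and was called in neither comparison of KD with Control. The sum over a gene does not show whether the floxed exons are missing, so these totals check no label. The 7 microglial markers tested summed to between 35578 and 40828 CPM in Control WT and between 26769 and 30832 CPM in Control APP/PS1, with 4 of 7 called lower and 0 higher. In KD mice they summed to between 36485 and 41163 CPM in WT and between 29748 and 33509 CPM in APP/PS1, with 6 of 7 called lower. The part of this fall in the differences between APP/PS1 and WT was not tested. Choroid plexus epithelial markers summed to 1901 and 988 CPM in Control WT libraries 12 and 15, to between 85.9 and 762 CPM in KD libraries 18 to 23, and to at most 49.1 CPM in the others. Libraries 18 to 23 are 4 KD APP/PS1 and 2 KD WT libraries. Of these, 5 also held fewer counts in long transcripts than any other of the 22 libraries used, as given beside Lrp1 and Mertk. Library 10 was not scored.

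The promoters of Cd68 and Scarb1, the pair that was higher in APP/PS1 than in WT mice, are shown first, as the 250 bases before the start of the canonical transcript in GENCODE M39 on the GRCm39 genome, read 5′ to 3′ along the gene, both of which lie on the minus strand. Capitals mark matches to 3 short motifs searched on both strands: GAGGAA (the core bound by PU.1, a lineage factor of myeloid cells), CACGTG (an E-box bound by TFEB, a factor of lysosomal genes) and TGANTCA (AP-1). Cd68 (chr11:69557068-69557317) had a GAGGAA at -154 and a TGANTCA at -78 from the start site, while Scarb1 (chr5:125418177-125418426) had none of the 3.
Cd68: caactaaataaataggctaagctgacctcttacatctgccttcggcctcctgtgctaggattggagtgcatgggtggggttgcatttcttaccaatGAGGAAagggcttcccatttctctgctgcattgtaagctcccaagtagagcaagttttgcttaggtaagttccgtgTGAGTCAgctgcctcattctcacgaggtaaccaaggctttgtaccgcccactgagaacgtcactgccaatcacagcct
Scarb1: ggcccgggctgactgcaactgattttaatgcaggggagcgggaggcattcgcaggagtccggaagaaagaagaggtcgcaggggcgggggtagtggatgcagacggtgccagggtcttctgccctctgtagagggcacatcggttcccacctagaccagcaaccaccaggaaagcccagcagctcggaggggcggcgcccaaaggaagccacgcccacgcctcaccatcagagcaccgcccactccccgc
Across 18730 promoters of the same length, 23.7% held GAGGAA, 6.92% CACGTG and 5.06% TGANTCA. Of the 9 genes searched, 3 held GAGGAA (Cd68, Pros1 at -170 and, on the opposite strand, Mfge8 at -203), 1 held TGANTCA and 0 held CACGTG. Base composition differed between the promoters shown: 64.8% of bases were G or C in that of Scarb1 and 49.2% in that of Cd68. The genes themselves are protein-coding and lie at chr11:69555037-69557067 (Cd68, 5 exons) and chr5:125353547-125418176 (Scarb1, 13 exons).

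To compare levels between genes, CPM were divided by the length of the canonical transcript in kb. In Control WT microglia Cd68 was highest at 342 ± 42.6 CPM per kb (SD, n = 6) and made up 49.1% of the sum of the 10 genes. Pros1 came next at 144 ± 6.93 CPM per kb, followed by Mertk at 81.8 ± 7.68 and Gas6 at 63.7 ± 12.8, whose libraries overlapped. Lrp1 at 26.1 ± 7.96, Mfge8 at 14.8 ± 4.60, Scarb1 at 10.1 ± 0.807, Cd36 at 8.10 ± 1.04 and Msr1 at 5.47 ± 0.747 CPM per kb formed a chain in which each overlapped the next. Timd4 was lowest at 0.820 ± 0.802 CPM per kb and did not overlap Msr1.

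In Control APP/PS1 microglia the same scale gave Cd68 773 ± 98.4 CPM per kb (n = 6), or 67.9% of the sum, with Pros1 again next at 148 ± 9.29. Scarb1 stood at 25.1 ± 3.04 CPM per kb and passed Mfge8 (12.9 ± 3.19), from rank 7 to rank 6, while Cd36 stood at 2.78 ± 0.733 CPM per kb, below Msr1 (9.19 ± 7.08), with no overlap between either pair. In KD APP/PS1 microglia Cd68 was at 685 ± 76.4 CPM per kb (n = 5; 68.4% of the sum), Scarb1 at 28.3 ± 4.89 (rank 5) and Cd36 at 3.01 ± 1.37 (rank 9). Divided by the length of all annotated exons instead, Mertk stood above Gas6 in both APP/PS1 groups and Lrp1 above Scarb1 in KD APP/PS1, and each of these pairs overlapped.

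**Figure D1:**
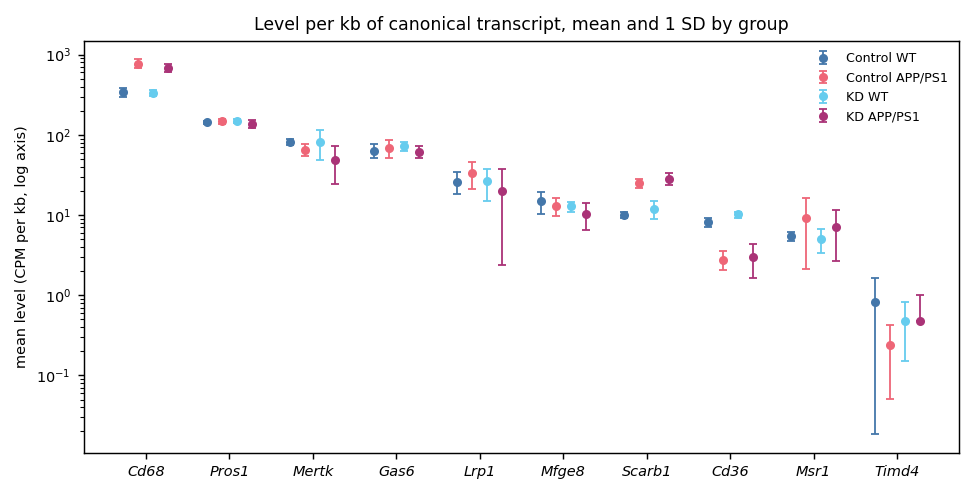
Mean level of each gene per kb of canonical transcript (CPM per kb, log axis) in Control WT, Control APP/PS1, KD WT and KD APP/PS1, with 1 SD over libraries; no lower bar is drawn for Timd4 in KD APP/PS1, whose SD exceeds its mean. Cd68 is highest in all 4 groups, at 333 to 773 CPM per kb, and Timd4 lowest, at 0.238 to 0.820.

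The first question was which of these genes differ between APP/PS1 and WT microglia when Slc11a2 is left intact. In Control mice, Cd68 and Scarb1 rose and Cd36 fell in APP/PS1, and the other 7 did not pass the test. In counts, 2 of 10 were called higher (5.99% of all genes tested were) and 1 of 10 lower (4.48% of all genes), at an adjusted p under 0.05 in edgeR's quasi-likelihood test. The median log2 fold change of the 10 was 0.08 (-0.02 over all genes tested). In bulk RNA, a change in the share of a cell type and a change in the RNA of each cell cannot be told apart.

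Cd68 ran from 361 to 474 CPM in Control WT (median 395) and from 778 to 1085 CPM in Control APP/PS1 (median 908). All 6 APP/PS1 libraries lay above all 6 WT libraries. The fitted log2 fold change was 1.18 (SE 0.11, 95% interval 0.97 to 1.39), a 2.26-fold difference, with an adjusted p of 4.79e-08. Scarb1, a class B scavenger receptor that takes up cholesterol esters from HDL, ran from 22.1 to 28.3 CPM in Control WT (median 25.6) and from 49.5 to 71.1 CPM in Control APP/PS1 (median 65.7), again with no overlap. Its log2 fold change was 1.31 (SE 0.14, 95% interval 1.04 to 1.59; adjusted p = 5.38e-07).

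Cd36, the other class B receptor of the list, which binds oxidised lipoproteins, fatty acids and fibrillar amyloid, moved the opposite way. It ran from 22.6 to 33.2 CPM in Control WT (median 29.1) and from 6.80 to 13.5 CPM in Control APP/PS1 (median 10.2), so that every APP/PS1 library lay below every WT library. Its log2 fold change fell by 1.54 (SE 0.22, 95% interval -1.97 to -1.12; adjusted p = 2.44e-05). Of the 10 genes these 3 had groups that did not overlap, beside 8.36% of all genes tested. For each of the 3 the exact permutation test over libraries (two-sided, on log2 CPM) gave p = 0.00216, the smallest that 6 against 6 allows.

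Markers of border-associated macrophages, the macrophages of the meninges and perivascular spaces, moved in the same direction as Cd36. Their 9 markers summed to between 237 and 485 CPM in Control WT and between 104 and 224 CPM in Control APP/PS1, and 6 of 9 were called lower and 0 higher. Monocyte markers summed to between 23.3 and 81.9 CPM in Control WT and between 9.02 and 28.9 CPM in Control APP/PS1. Markers of other cell types were lower as well: neutrophil markers summed to a mean of 134 CPM in Control WT (highest 259) and 45.2 CPM in Control APP/PS1 (highest 78.8; 3 of 5 called lower), endothelial markers to between 134 and 332 and between 90.9 and 128 CPM (3 of 5 lower, 1 higher), and oligodendrocyte markers to between 673 and 2739 and between 308 and 905 CPM (4 of 5 lower). Of choroid plexus markers 8 of 10 were called lower, of neuron markers 2 of 5, of mural cell markers 1 of 4 and of monocyte markers 2 of 6. In each of these lists 0 were called higher. Endothelium also expresses Cd36. Astrocyte markers went the other way, with sums of 6.74 to 13.7 CPM in Control WT and 35.3 to 98.1 CPM in Control APP/PS1, and of at most 16.5 CPM in KD WT and 37.7 to 124 CPM in KD APP/PS1. Of these 5 markers 1, the astrocyte filament gene Gfap, was called higher in both comparisons and 0 lower. Their part in the rise of Cd68 and Scarb1 was not tested. The part of any of these cells in the Cd36 difference was not tested. With Control WT libraries 12 and 15, the pair highest in choroid plexus markers, left out, the direction and the call of Cd68, Scarb1 and Cd36 were kept.

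**Figure D2:**
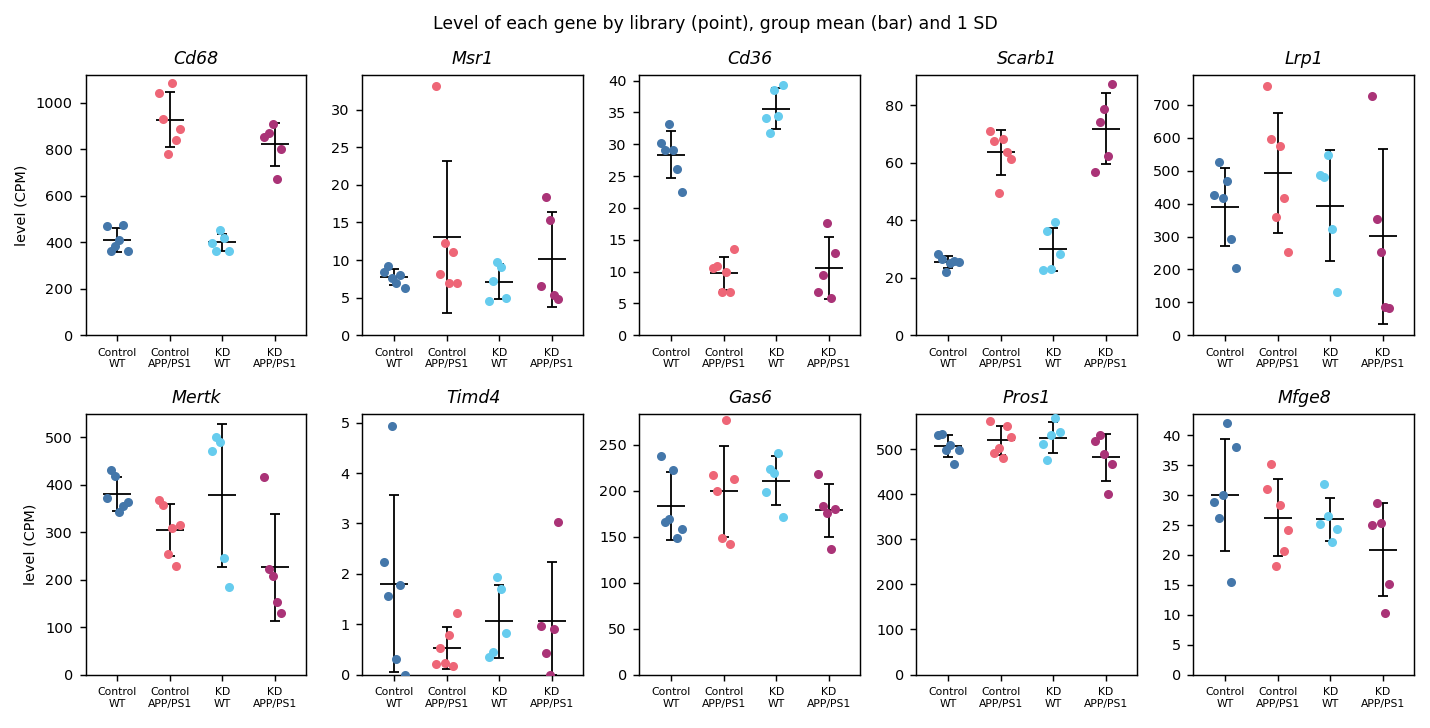
Level of each of the 10 genes (CPM, linear axis from 0) in each library (points) of Control WT, Control APP/PS1, KD WT and KD APP/PS1, with the group mean (horizontal bar) and 1 SD (whiskers, stopped at 0). The APP/PS1 and WT points of Cd68, Scarb1 and Cd36 do not overlap within Control or within KD, whereas those of the other 7 genes do.

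The same comparison within KD mice named the same 3 genes: Cd68 and Scarb1 were called higher and Cd36 lower in KD APP/PS1 than in KD WT. That is 2 of 10 higher beside 9.77% of all genes and 1 of 10 lower beside 6.41%, and these 3 were again the members without overlap (7.06% of all genes tested). The median of the 10 log2 fold changes was -0.18 (-0.07 over all genes tested).

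Cd68 was at 362, 363, 399, 418 and 453 CPM in the KD WT libraries and at 672, 800, 853, 870 and 907 CPM in the KD APP/PS1 libraries. Its log2 fold change was 1.04 (SE 0.12, 95% interval 0.81 to 1.27; adjusted p = 1.58e-06). Scarb1 was at 22.9, 23.1, 28.4, 36.2 and 39.3 CPM in KD WT and at 56.7, 62.5, 74.2, 78.8 and 87.5 CPM in KD APP/PS1. Every APP/PS1 library was again the higher, with a log2 fold change of 1.26 (SE 0.15, 95% interval 0.96 to 1.56; adjusted p = 4.85e-06).

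Cd36 was at 31.8, 34.2, 34.4, 38.4 and 39.3 CPM in KD WT and at 5.87, 6.86, 9.51, 12.9 and 17.7 CPM in KD APP/PS1. All 5 APP/PS1 libraries were below the lowest WT library, and the log2 fold change fell by 1.76 (SE 0.24, 95% interval -2.22 to -1.29; adjusted p = 2.06e-05). The exact permutation p was 0.00794 for each of the 3 genes, the smallest that 5 against 5 allows. Border-associated macrophage markers summed to between 284 and 560 CPM in KD WT and between 147 and 222 CPM in KD APP/PS1, with 3 of 9 called lower, and endothelial markers to between 101 and 267 CPM and between 64.8 and 158 CPM, with 2 of 5 called lower. Oligodendrocyte markers summed to between 939.9 and 3554 CPM in KD WT and between 489.9 and 1205 CPM in KD APP/PS1, with 2 of 5 called lower, and 1 of 6 monocyte and 1 of 4 mural cell markers were called lower. The part of these cells in the Cd36 difference was not tested. Within libraries 18 to 23 alone (4 KD APP/PS1 and 2 KD WT), the log2 fold change was 1.05 for Cd68 (adjusted p = 0.0182), 1.16 for Scarb1 (adjusted p = 0.0278) and -1.69 for Cd36 (adjusted p = 0.0503), the last no longer past the threshold.

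The opposite shifts of the class B pair can be read within each library, where the scaling between libraries cancels. The log2 ratio of Scarb1 to Cd36 CPM was -0.14 ± 0.25 (SD, n = 6) in Control WT and 2.73 ± 0.34 (n = 6) in Control APP/PS1, and -0.28 ± 0.44 (n = 5) in KD WT and 2.86 ± 0.46 (n = 5) in KD APP/PS1. The highest ratio in any WT library was 0.19 and the lowest in any APP/PS1 library 2.16. This ratio was formed after the values of both genes had been seen, and since neither gene's groups overlap it is a description with no test. The library left out, Control APP/PS1 library 10, scaled together with all 23 libraries, held 634 CPM of Cd68, 57.3 CPM of Scarb1 and 9.08 CPM of Cd36, each on the APP/PS1 side of every Control WT library. It also held 149 CPM of Mertk, 175 CPM of Lrp1, 139.7 CPM of Gas6 and 436 CPM of Pros1, each below every other Control library.

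Msr1, the class A scavenger receptor that binds acetylated lipoproteins and amyloid, was low and uneven. It ran from 6.29 to 9.28 CPM in Control WT (median 7.86) and from 6.94 to 33.2 CPM in Control APP/PS1 (median 9.62), the highest value being library 5. KD WT libraries were at 4.57, 4.99, 7.20, 9.07 and 9.81 CPM, and KD APP/PS1 libraries at 4.85, 5.41, 6.57, 15.3 and 18.4 CPM. The log2 fold change of APP/PS1 against WT was 0.75 (SE 0.37, adjusted p = 0.218) in Control and 0.51 (SE 0.41, adjusted p = 0.431) in KD mice. Without library 5 the Control value was 0.22 (adjusted p = 0.768).

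Mertk, the TAM receptor kinase through which microglia engulf cells opsonised by Gas6 or Pros1, ran from 343 to 431 CPM in Control WT (median 368) and from 230 to 368 CPM in Control APP/PS1 (median 311). The log2 fold change was -0.32 (SE 0.24, 95% interval -0.79 to 0.16; adjusted p = 0.483), while the exact permutation test gave p = 0.0216. It was -0.33 (adjusted p = 0.0356) with libraries 18 to 23 left out, where 7.53% of all genes were called lower. KD WT libraries were at 184, 245, 470, 490 and 500 CPM and KD APP/PS1 libraries at 130, 153, 208, 223 and 416 CPM, with a log2 fold change of -0.74 (SE 0.27, 95% interval -1.26 to -0.22; adjusted p = 0.0602). This value lay near the threshold: it was called lower with DESeq2 (adjusted p = 0.0199), with limma voom (0.0035) and without KD APP/PS1 library 4 (-1.08, adjusted p = 0.0020), KD WT library 19 (0.0342) or KD WT library 22 (0.0099). The share of all genes called lower was 9.41% with DESeq2, 10.4% with limma voom, and 12.6%, 6.65% and 10.5% without libraries 4, 19 and 22. Within libraries 18 to 23 alone it was -0.27 (adjusted p = 0.72).

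Lrp1, the large endocytic receptor for Apoe-bearing lipoproteins, calreticulin-bearing cells and amyloid, had a wider spread than Mertk within each of the 4 groups. It ran from 204 to 526 CPM in Control WT (median 421) and from 254 to 757 CPM in Control APP/PS1 (median 497). KD WT libraries were at 132, 322, 480, 488 and 549 CPM and KD APP/PS1 libraries at 81.9, 86.8, 253, 353 and 728 CPM. The log2 fold change of APP/PS1 against WT was 0.34 (SE 0.42, adjusted p = 0.705) in Control and -0.39 (SE 0.46, adjusted p = 0.618) in KD mice.

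Of the 22 libraries used, the 3 lowest in Lrp1 were also the 3 lowest in Mertk and in counts of long transcripts. The Lrp1 canonical transcript has 89 exons and 14906 bases, and that of Mertk 4656 bases. A long-transcript score was taken for each library as the median log2 CPM of 1187 genes with transcripts of at least 6920 bases less that of 1188 genes with transcripts of at most 1196 bases, each gene having a mean of at least 1 CPM and being first centred over the 22 libraries. The 5 lowest scores were -1.81 (library 21), -1.51 (23), -1.11 (22), -0.96 (20) and -0.41 (18), against 0.12 to 0.61 in Control WT, while library 19 of the same run of numbers scored -0.13, within the range of Control APP/PS1 (-0.18 to 0.78). Libraries 23, 21 and 22 held the 3 lowest levels of both genes. The next lowest Lrp1 level of the libraries used, 204 CPM in Control WT library 15, came with 364 CPM of Mertk and a score of 0.20. With this score as a term in the model, chosen after seeing the data, the KD APP/PS1 against KD WT values became 0.01 for Mertk (adjusted p = 0.99) and 0.63 for Lrp1 (adjusted p = 0.0702), and the Control APP/PS1 against Control WT value of Lrp1 became 0.64 (adjusted p = 0.0131, where 11.8% of all genes were called higher) and that of Mertk -0.15 (adjusted p = 0.308). Cd68, Scarb1 and Cd36 kept their calls in both comparisons with this term. The mean score was 0.37 in Control WT, 0.10 in Control APP/PS1, 0.27 in KD WT and -0.84 in KD APP/PS1. The term therefore overlaps with the difference between APP/PS1 and WT, and the 2 cannot be fully told apart. Mertk, at 4656 bases, is shorter than the limit of the long set. The part of long-transcript counts in the levels of Lrp1 and Mertk was not tested.

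**Figure D3:**
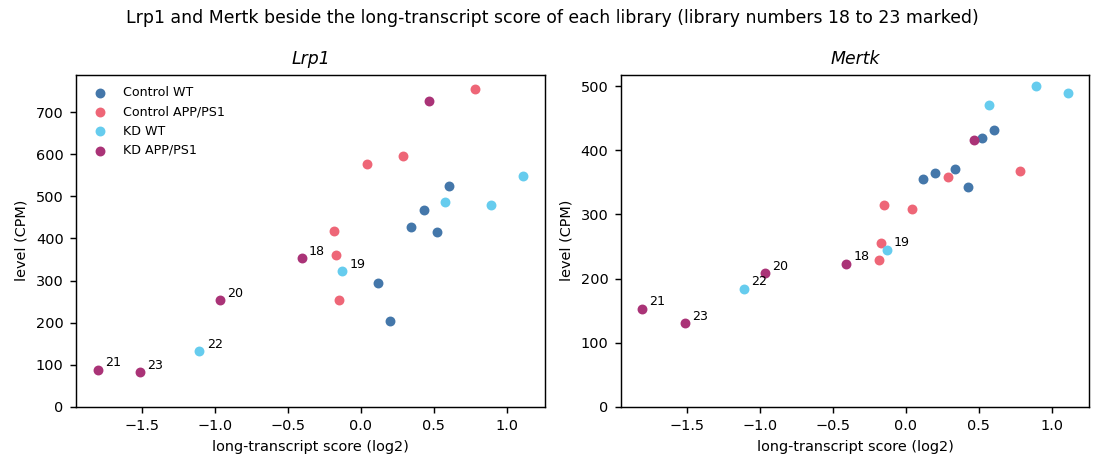
Level (CPM) of Lrp1 (left) and Mertk (right) in each of the 22 libraries against the long-transcript score of that library (log2), coloured by group, with libraries 18 to 23 numbered. Libraries 21, 23 and 22 have the 3 lowest scores (-1.81, -1.51 and -1.11) and the 3 lowest levels of both genes.

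Timd4, a phosphatidylserine receptor typical of resident macrophages outside the brain parenchyma, was barely measured. Control WT libraries ran from 0 to 4.93 CPM (median 1.67) and Control APP/PS1 libraries from 0.171 to 1.21 CPM (median 0.384). KD WT libraries were at 0.357, 0.454, 0.832, 1.71 and 1.94 CPM and KD APP/PS1 libraries at 0, 0.434, 0.898, 0.960 and 3.02 CPM. It had 0 counts in Control WT library 15 and KD APP/PS1 library 20, which allows up to 0.0886 and 0.0818 CPM (3 counts, counting error only). The log2 fold change of APP/PS1 against WT was -1.78 (95% interval -3.65 to 0.09; adjusted p = 0.264) in Control and 0.0016 (95% interval -2.00 to 2.01; adjusted p = 1.00) in KD mice.

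Of the bridge proteins Pros1, the TAM ligand also known as protein S, had an SD of 4.82% to 10.7% of its mean within the 4 groups, the least of the 10 genes. It ran from 468 to 533 CPM in Control WT and from 482 to 562 CPM in Control APP/PS1 (log2 fold change 0.04, 95% interval -0.12 to 0.20), and from 477 to 570 CPM in KD WT and 401 to 532 CPM in KD APP/PS1 (log2 fold change -0.12, 95% interval -0.30 to 0.05). Gas6, the other TAM ligand, ran from 148 to 238 CPM in Control WT, 142 to 277 in Control APP/PS1, 171 to 241 in KD WT and 137 to 218 in KD APP/PS1. Its log2 fold changes were 0.12 (95% interval -0.19 to 0.42) in Control and -0.24 (95% interval -0.57 to 0.10) in KD mice. Gas6 shares 154 bases with Tmem255b on the opposite strand, and whether the counting used strand is not stated, so reads in those bases cannot be assigned.

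Mfge8, which links phosphatidylserine to alpha v integrins, ran from 15.5 to 42.0 CPM in Control WT, 18.1 to 35.3 in Control APP/PS1, 22.2 to 31.8 in KD WT and 10.3 to 28.7 in KD APP/PS1. Its log2 fold changes were -0.20 (95% interval -0.65 to 0.26) and -0.31 (95% interval -0.81 to 0.19). Its highest Control WT values, 42.0 and 38.0 CPM, were in libraries 12 and 15, and without these libraries the Control difference was 0.06. Neither Pros1, Gas6 nor Mfge8 among the bridge proteins passed the test in either comparison (adjusted p from 0.365 to 0.858).

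**Figure D4:**
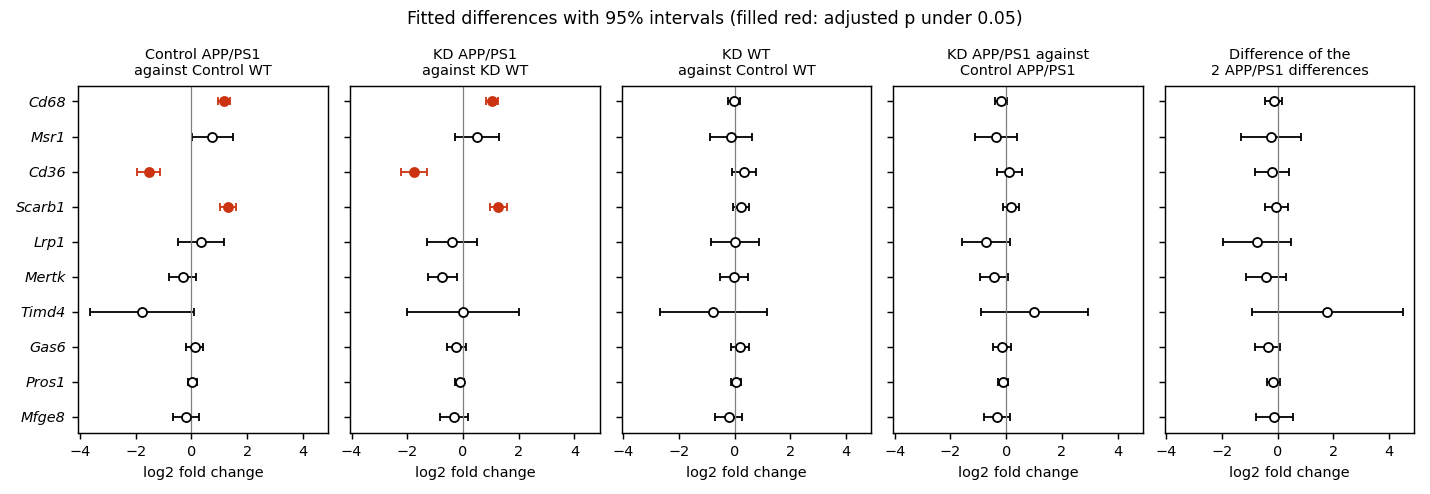
Fitted log2 fold changes of the 10 genes (points) with 95% intervals (bars) in 4 comparisons, and in the last panel the difference between the KD and Control values of APP/PS1 against WT; filled red points have an adjusted p under 0.05. Cd68, Scarb1 and Cd36 are filled in the 2 panels of APP/PS1 against WT (1.18, 1.31 and -1.54 in Control, 1.04, 1.26 and -1.76 in KD), and no point is filled in the other panels.

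Among the study's questions was the effect of Slc11a2 knockdown on gene expression in microglia, in mice with and without amyloid. In WT mice 0 of the 10 genes were called in KD against Control, as were 0% of all genes tested in either direction. At an unadjusted p under 0.05 the count was 0 of 10 (5.92% of all genes), and 0 of 10 had groups that did not overlap (0.197% of all genes). These shares are those of the edgeR fit and its CPM. DESeq2 and limma voom also called 0 of the 10, and the share of all genes they called is not given here. The log2 fold change was -0.04 (95% interval -0.25 to 0.18) for Cd68, 0.23 (-0.06 to 0.51) for Scarb1 and -0.01 (-0.51 to 0.49) for Mertk. Mertk averaged 487 CPM in KD WT libraries 1 to 3 and 215 CPM in KD WT libraries 19 and 22, beside 381 CPM in Control WT, and its difference was 0.34 with libraries 18 to 23 left out and 0.36 with a term for them (adjusted p = 0.314 and 0.378). Cd36 was 28.4 ± 3.66 CPM (SD, n = 6) in Control WT and 35.6 ± 3.15 CPM (n = 5) in KD WT. Its groups overlapped by a narrow margin, since the highest Control value of 33.2 CPM exceeded the lowest KD value of 31.8 CPM. edgeR gave 0.33 (95% interval -0.10 to 0.76; adjusted p = 1.00), and the exact permutation test gave p = 0.00866, 1 of 40 such tests of a gene in a comparison and not adjusted for them.

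In APP/PS1 mice 0 of the 10 genes were called in KD against Control, again with 0% of all genes called in either direction. At an unadjusted p under 0.05 the count was 0 of 10 although 20.6% of all genes passed, and 0 of 10 had groups without overlap (0.821% of all genes). DESeq2 and limma voom also called 0 of the 10. The 0% of all genes is that of edgeR, and the share called by those other methods is not given here. Cd68 differed by -0.18 (95% interval -0.39 to 0.04), Scarb1 by 0.18 (-0.11 to 0.46) and Cd36 by 0.11 (-0.32 to 0.55). The largest values belonged to Timd4 (1.01, 95% interval -0.90 to 2.93), Lrp1 (-0.72, -1.58 to 0.15) and Mertk (-0.43, -0.94 to 0.07). All of these except that of Cd68 changed sign under an alternative. Scarb1 was -0.11 and Cd36 -0.17 with a term for libraries 18 to 23, and -0.18 and -0.52 with these libraries left out, while Timd4 was -1.17 with limma voom. Lrp1 and Mertk were 0.22 and 0.43 with the term for libraries 18 to 23, and 0.037 and 0.11 with the long-transcript score as a term (adjusted p = 1.00 for all 4). Without KD APP/PS1 library 4, the only one of its group outside libraries 18 to 23, Lrp1 was -1.35 (adjusted p = 0.0326) and Mertk -0.77 (adjusted p = 0.0285), in a fit that called 9.07% of all genes lower. With libraries 18 to 23 left out, which leaves library 4 alone in its group, they were 0.55 and 0.43 (adjusted p = 1.00 for both). All Control libraries are numbered 5 to 17 and all KD libraries 1 to 4 or 18 to 23. Knockdown and library number therefore cannot be told apart, either in this comparison or in that of KD WT with Control WT.

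The effect of APP/PS1 was also compared between KD and Control mice. In this interaction test with edgeR 0 of the 10 genes were called (0% of all genes), and 0 of 10 had an unadjusted p under 0.05 (9.08% of all genes). DESeq2 and limma voom also called 0 of the 10, and the share of all genes called with them is not given here. The KD value less the Control value was -0.14 for Cd68 (95% interval -0.44 to 0.17), -0.05 for Scarb1 (-0.45 to 0.35) and -0.21 for Cd36 (-0.83 to 0.40), intervals that hold 0. Lrp1 gave -0.73 (-1.95 to 0.48), Mertk -0.42 (-1.13 to 0.28) and Timd4 1.78 (-0.94 to 4.50), with wider intervals. These 3 and Scarb1 changed sign under alternatives: Scarb1 was 0.044 with limma voom, Lrp1 was 0.18 and Mertk 0.086 with libraries 18 to 23 left out, Mertk was 0.15 with the long-transcript score as a term, and Timd4 was -0.71 with limma voom.

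Other genes of the same pathways were counted from 3 lists. In Control APP/PS1 against Control WT, where 5.99% of all genes were called higher and 4.48% lower, 2 of 14 other scavenger receptors tested were higher and 4 lower, with a median log2 fold change of -0.91 (-0.02 over all genes). Colec12, a scavenger C-type lectin, rose by 1.78 (SE 0.43, adjusted p = 0.0072) and Cxcl16, a membrane-bound chemokine that binds oxidised lipoprotein and phosphatidylserine, by 1.09 (SE 0.19, adjusted p = 2.68e-04). Mrc1, the mannose receptor, fell by 1.57, Cd163, the haemoglobin scavenger receptor, by 1.39 and Stab1, a receptor for modified lipoproteins and phosphatidylserine, by 1.26 (adjusted p = 4.80e-04, 0.0081 and 0.0047), and Scarb2, a lysosomal class B relative, fell by 0.31 (adjusted p = 0.0499). Mrc1 and Cd163 are also border-associated macrophage markers, whose summed levels are given beside Cd36. In KD mice, where the shares of all genes were 9.77% and 6.41%, 1 was higher (Cxcl16, 1.45) and 4 were lower (Cd163 -1.76, Mrc1 -1.68, Stab1 -1.42 and Scarb2 -0.32), with a median of -0.44 (-0.07 over all genes).

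Of 12 other receptors for dying cells, 5 were higher and 1 lower in Control APP/PS1 (median 0.43), beside 5.99% and 4.48% of all genes. Axl, a TAM kinase that like Mertk binds Gas6, rose by 2.72 (SE 0.32, adjusted p = 1.60e-06), from 98.5 CPM in Control WT to 648 CPM in Control APP/PS1, with no overlap. The phosphatidylserine-binding receptors Cd300lf and Cd300lb rose by 2.67 and 1.86, the integrin subunit Itgb3, which pairs with Itgav to bind Mfge8, by 0.94, and Trem2, a lipid receptor of microglia, by 0.52. Cd300a, an inhibitory phosphatidylserine receptor, fell by 0.51 (adjusted p = 0.0045). In KD mice the same 5 were higher (Axl 2.84, Cd300lf 2.66, Cd300lb 2.09, Trem2 0.83 and Itgb3 0.74) and 1 was lower (Itgav -0.90, adjusted p = 0.0258), with a median of -0.02, beside 9.77% and 6.41% of all genes. Itgav has a canonical transcript of 7392 bases and an SD of 47.6% of its mean in KD APP/PS1, where 4 of 5 libraries are among those low in long transcripts, and the part of this in its call was not tested.

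Mertk and Axl can be set side by side within a library, a pair chosen after their values had been seen and given without a test. The log2 ratio of Axl to Mertk CPM was -2.12 ± 0.85 (n = 6) in Control WT and 1.07 ± 0.23 (n = 6) in Control APP/PS1, and -2.58 ± 1.19 (n = 5) in KD WT and 1.13 ± 0.45 (n = 5) in KD APP/PS1. No WT library had a ratio above -0.79 and no APP/PS1 library one below 0.41. Tyro3, the remaining TAM kinase, was nearly at 0, with 0 to 2.34 CPM in any library, and passed the test in neither comparison (adjusted p = 0.841 in Control and 0.497 in KD mice).

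Of 15 genes of engulfment and of receptor partners, 2 were higher and 1 lower in Control APP/PS1 (median -0.04), beside 5.99% and 4.48% of all genes. Lrpap1, the chaperone that escorts Lrp1 through the secretory pathway, rose by 1.10 (SE 0.17, adjusted p = 5.64e-05), and Calr, a chaperone that on the surface of dying cells is an Lrp1 ligand, by 0.41 (adjusted p = 0.0066). Elmo1, which with Dock proteins activates Rac in engulfment, fell by 0.91 (SE 0.19, adjusted p = 0.0017). In KD mice Lrpap1 (0.83) and Calr (0.49) were higher and Elmo1 (-1.30) and the sheddase Adam10 (-0.64) lower (median -0.19), beside 9.77% and 6.41% of all genes. In KD against Control, 0 genes of the 3 lists were called in either genotype. At an unadjusted p under 0.05, 0 passed in WT mice, and 1 of 14 scavenger receptors, 3 of 12 receptors for dying cells and 7 of 15 engulfment genes passed in APP/PS1 mice, beside the 20.6% of all genes given above. In KD APP/PS1 the SD was 77.9% of the mean for Dock2, 76.2% for Abca1, 35.7% for Adam10 and 34.5% for Elmo1, with canonical transcripts of 6488, 10267, 4651 and 5825 bases, and the part of the low long-transcript scores in these counts was not tested.

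**Figure D5:**
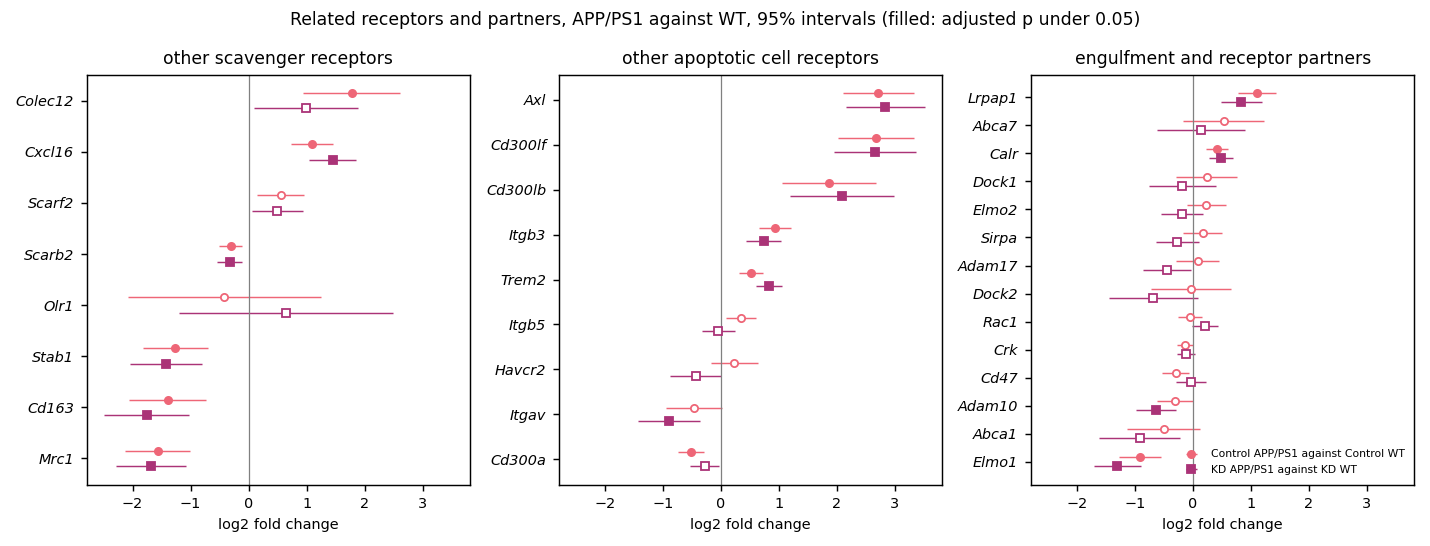
Log2 fold change of APP/PS1 against WT (points) with 95% intervals (bars) in Control (circles) and KD (squares) mice for listed genes with a mean of at least 1 CPM; filled symbols have an adjusted p under 0.05. Axl lies farthest to the right (2.72 and 2.84), and Mrc1, Cd163 and Stab1 lie between -1.76 and -1.26.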

How the data were processed

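The authors trimmed the paired reads (Trim Galore 0.6.7), aligned them with STAR to mm39 with GENCODE M31, and deposited raw gene counts and a normalized table, which was not used. The strand setting is not given in the sources used here.

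Counts were analysed with edgeR 4.0.16 (R 4.3.3): TMM scaling, a minimum of 5 counts in 3 or more libraries, 4 groups in 1 quasi-likelihood fit of 22 libraries, Benjamini-Hochberg adjustment over 18759 genes, intervals of ± 1.96 SE. Single genes were also tested by exact permutation (two-sided, log2 CPM, prior count 2). Lengths and promoters were read from GRCm39 with GENCODE M39; 1 promoter is not reported here. Of 253 pairs of libraries, 0 held identical values. The study describes its libraries as biological replicates, from separate mice, and p-values measure the spread between them.

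The genes and lists were chosen with earlier results of these data known. All 10 genes are named, and of each list and comparison up to 4 called genes with the largest change and a mean of at least 1 CPM. Scarb2 and Trem2, Cxcl16 and Cd300a in Control mice, Itgb3 in KD mice, and Tyro3, Dock2 and Abca1 were named after their values were seen. Alternatives were DESeq2 1.42.0, limma 3.58.1 voom, other scaling, filters and thresholds, library 10 kept, and libraries left out.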

Additional observations from a re-analysis of the deposited data

Results flagged for a closer look

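The level of Msr1 in Control APP/PS1 library 5 was 33.2 CPM, whereas the other 5 libraries of its group lay between 6.94 and 12.2 CPM. It was singled out because its gap to the next value took up 0.798 of the whole range of the group (n = 6), more than Dixon's 95% critical value allows. Of 40 combinations of a gene and a group that were screened in this way, 1 was singled out, and chance singles out about 1 in 20.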

How the results depend on the processing

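Of 1225 alternative values, 1146 kept their direction and their side of the threshold. The calls of Cd68, Scarb1 and Cd36 in both comparisons of APP/PS1 against WT held under all alternatives except Cd36 within libraries 18 to 23 alone. A further 10 values newly passed the threshold, 8 of them of Mertk, and 68 changed sign, with adjusted p from 0.0702 upward, so that no called value reversed. The cause was not tested in any of these cases. The mice were littermates, but the sample labels do not give the litter of a library, so no paired analysis was possible. Of the 10 genes, the count called lower in KD APP/PS1 against KD WT was 2 in place of 1 with DESeq2, with limma voom and with at least 10 counts in every library (beside 14.6% of all genes in the last), 0 within libraries 18 to 23 (0.41% of all genes), and 1 to 2 leaving out each library in turn. The count lower in Control APP/PS1 against Control WT was 2 with libraries 18 to 23 left out (an alternative chosen after seeing the data), through Mertk (-0.33, adjusted p = 0.0356) and beside 7.53% of all genes, the count higher was 3 in place of 2 with the long-transcript score as a term, through Lrp1 and beside 11.8% of all genes, and that in KD against Control APP/PS1 was 0 to 2 leaving out each library in turn. Sign changes are given as the log2 fold change under the alternative. With at least 10 counts in every library, Pros1 was -0.0073 (Control APP/PS1 against WT). Without Control WT libraries 12 and 15, Mfge8 was 0.065 (Control APP/PS1 against WT) and 0.050 (KD against Control WT), and Lrp1 -0.077 (KD against Control WT). With limma voom, Timd4 was -1.90 (KD APP/PS1 against WT) and -1.17 (KD against Control APP/PS1), Mertk 0.083 (KD against Control WT), Msr1 0.23 (KD against Control APP/PS1), and the interactions were 0.45 for Msr1, 0.044 for Scarb1 and -0.71 for Timd4. Within libraries 18 to 23, Timd4 was -0.21 (KD APP/PS1 against WT). A term for libraries 18 to 23 gave Lrp1 0.052 and Timd4 -0.12 (KD APP/PS1 against WT), Mertk 0.36 (KD against Control WT), Cd36 -0.17, Scarb1 -0.11, Lrp1 0.22 and Mertk 0.43 (KD against Control APP/PS1), and an interaction of 0.066 for Mertk. Leaving these libraries out gave Msr1 -0.14, Lrp1 0.51, Gas6 0.013 and Pros1 0.021 (KD APP/PS1 against WT), Mertk 0.34 and Pros1 -0.0099 (KD against Control WT), Cd36 -0.52, Scarb1 -0.18, Lrp1 0.55, Mertk 0.43 and Gas6 0.11 (KD against Control APP/PS1), and interactions of 0.18 for Lrp1, 0.086 for Mertk and 0.042 for Mfge8, where KD APP/PS1 has 1 library that is assumed to vary like the other groups. The long-transcript score as a term gave Lrp1 0.63, Mertk 0.0056, Timd4 -0.33 and Mfge8 0.025 (KD APP/PS1 against WT), Msr1 0.19, Lrp1 0.037, Mertk 0.11 and Gas6 0.021 (KD against Control APP/PS1), and interactions of 0.26 for Msr1, 0.15 for Mertk and 0.14 for Mfge8. Leaving out each library in turn, Timd4 ran from -0.88 to 0.34 (KD APP/PS1 against WT), Cd68 from -0.087 to 0.0091, Lrp1 from -0.13 to 0.23 and Mertk from -0.13 to 0.15 (KD against Control WT), Msr1 from -0.73 to 0.16 and Cd36 from -0.16 to 0.25 (KD against Control APP/PS1), and the interactions from -0.58 to 0.29 for Msr1, -0.13 to 0.072 for Scarb1 and -0.27 to 0.058 for Mfge8. Depth limits Timd4, at 0 to 176 counts a library.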
